A study of Mus musculus with 8 samples.

Results

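Transcripts of 10 genes of the AP-1 and immediate early response were followed across mouse embryonic stem cells: Fos, Fosb, Fosl1, Fosl2, Jun, Junb, Jund, Egr1, Ier2 and Ier3. They were chosen by name out of 17836 genes represented on the arrays, and every probe set annotated to 1 of them alone was taken, 14 in all. All 14 passed the filter on low values, a log2 signal of at least 4 on at least 2 arrays. RNA was measured on 8 single-colour Affymetrix arrays, with 2 arrays in each of 4 groups. The groups were Rex-1 knockout cells cultured without leukemia inhibitory factor (LIF), Rex-1 knockout cells with LIF, J1 wild-type cells without LIF and J1 cells with LIF. J1 is an established mouse embryonic stem cell line, and the labels name J1 as the source of the knockout cells too. All cells grew on gelatin in serum medium, and LIF was absent for 12 hours according to a text shared by all 8 labels. The growth text of the knockout cells without LIF mentions added LIF, and the titles and treatment text were followed here. One array of each group carries the letter r in its title. It is called the second array and the other one the first array. The labels do not say what the letter marks, whether the knockout is 1 clone, or whether a group's arrays came from separate cultures, although the series text calls them biological replicates, so p-values measure only the spread between these arrays.

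AP-1 is a dimer of basic leucine zipper proteins, in which a FOS protein pairs with a JUN protein and binds a short DNA site. FOS proteins need a JUN partner, whereas JUN proteins can also pair with each other. Many of their genes, with the zinc finger gene Egr1 and the small regulators Ier2 and Ier3, are transcribed within minutes of a stimulus. Factors already present in the cell do this, and most of these mRNAs are short-lived. In embryonic stem cells LIF acts through the kinase JAK and the factor STAT3, and also through the ERK kinases, and Junb and Fos are among the genes known to respond to it.

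The deposited values are linear signal intensities, and log2 signals are given below. The median signal of an array ran from 122.5 to 143.5 on second arrays and from 114.2 to 119.0 on first arrays. A probe set was called in a comparison when its Benjamini-Hochberg adjusted p from limma was under 0.05 over all 43439 probe sets tested. The 8 embryonic stem cell markers looked up, among them Pou5f1 and Nanog, averaged 13.1 to 13.5 log2 per array, the lowest of them being Esrrb at a mean of 11.31. Zfp42, which encodes Rex-1, had log2 signals of 14.03 to 14.14 on the 4 arrays labelled knockout, against 14.15 to 14.51 on the J1 arrays. The 2 genotypes did not overlap but differed by only -0.21 (SE 0.16) on average, a high signal in both, and the sources do not say where this probe set lies relative to the deletion. Directions between genotypes refer to the arrays as labelled. The share of probe sets at a log2 of 4 or above was 86.8% to 91.2% on second arrays and 85.2% to 86.6% on first arrays, the highest being the second array of knockout cells with LIF. All 4 second arrays thus lay above all 4 first arrays in both measures of the whole array.

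The 150 bases before the annotated start are shown for 4 of the 7 members whose promoter sequence was at hand. Fosl1, Ier2 and Egr1 had no sequence at hand. Junb, Jun and Ier3 are shown because their second arrays were lower in every group, and Fos as the gene that names its family. Egr1 was also lower in every group but is not shown. The sequences are from RefSeq on build GRCm38.p6, written 5′ to 3′ along the gene. Capitals mark TGACG, a shortened cyclic AMP response element, in Junb (chr8:84978749-84978898, minus strand) and Fos (chr12:85473740-85473889, plus strand). They mark TGACATCA, an AP-1-like site, in Jun (chr4:95052223-95052372, minus strand) and GGAATTTCC, a site of the NF-kappaB type, in Ier3 (chr17:35821563-35821712, plus strand).
Junb: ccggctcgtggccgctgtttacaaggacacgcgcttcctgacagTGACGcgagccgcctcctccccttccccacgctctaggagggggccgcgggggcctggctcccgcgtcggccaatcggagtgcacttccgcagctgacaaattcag
Jun: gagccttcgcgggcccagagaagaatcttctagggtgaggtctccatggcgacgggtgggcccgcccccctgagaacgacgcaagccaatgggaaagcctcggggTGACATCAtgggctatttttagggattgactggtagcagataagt
Ier3: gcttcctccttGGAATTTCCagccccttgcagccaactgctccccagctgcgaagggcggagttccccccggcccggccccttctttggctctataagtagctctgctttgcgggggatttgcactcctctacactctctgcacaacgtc
Fos: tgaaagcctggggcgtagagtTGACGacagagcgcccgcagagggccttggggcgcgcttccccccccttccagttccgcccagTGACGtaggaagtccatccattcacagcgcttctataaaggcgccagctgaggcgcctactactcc

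Each motif was searched on both strands in the 250 bases before the start. TGACATCA was found in the Jun promoter and in 2.93% of all 32851 promoters. GGAATTTCC was found in Ier3 and in 0.286% of all promoters. TGACG, which lies within the full element TGACGTCA, was found in Junb, Fos and Fosb and in 17.8% of all promoters. The full element TGACGTCA, the AP-1 site TGAGTCA, the STAT site TTCNNNGAA and the CArG box, which serum response factor binds, were not found in these windows of the 7 members. Across all promoters they were present in 1.55%, 4.46%, 7.02% and 1.47%. Fosl1, Ier2 and Egr1 were not searched, so nothing is said here about motifs in their promoters. The matches describe the sequence and were not tested for binding.

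Second and first arrays were compared within each group. Jun, Junb, Egr1 and Ier3 had lower signals on the second array in all 4 groups, with average differences of -1.21 to -0.72 log2 units, whereas Jund and Ier2 averaged 0.00 and -0.02. The FOS members had no common direction. No probe set passed in this comparison, so these are measured differences that did not reach the threshold. In RNA of whole cultures, fewer cells with a transcript and less of it per cell cannot be told apart.

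Jun encodes the JUN subunit that pairs with FOS proteins and is phosphorylated by the JNK kinases. The second arrays had log2 signals of 8.20 and 7.24 in knockout cells without and with LIF and 7.84 and 6.90 in J1 cells without and with LIF, against 8.47, 8.22, 9.13 and 9.22 on the first arrays of the same groups. All 4 second arrays lay below all 4 first arrays, and the J1 first arrays were the highest. The average difference was -1.21 (SE 0.37, n = 4 pairs of arrays, limma adjusted p = 0.306), a 2.32-fold lower signal. The other Jun probe set differed by -0.55 (SE 0.29) on average, with the second array lower in 3 groups and 0.11 higher in knockout cells without LIF.

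Second minus first for Jun was -0.27 without LIF and -0.98 with it in knockout cells, against -1.29 and -2.32 in J1 cells. The test of knockout against J1 for this difference gave 1.18 (SE 0.31, adjusted p = 0.668), which did not pass. Over the 14 probe sets 1 had an unadjusted p under 0.05 in this test, in the higher direction, and 0 were called, against 0% of all probe sets called and 3.01% lower and 4.47% higher at that p.

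Egr1 encodes a zinc finger activator induced by ERK signalling. Its second arrays had 8.37 and 9.49 in knockout cells without and with LIF and 9.77 and 9.80 in J1 cells without and with LIF, against 10.01, 10.05, 10.22 and 10.31 on the first arrays. The first arrays were close together and all 4 second arrays lay below them, with the second array of knockout cells without LIF lowest. The average difference was -0.79 (SE 0.26, adjusted p = 0.324), and it was -0.50 when that group was left out.

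Junb encodes a JUN subunit that activates transcription more weakly than JUN. Its second arrays had 6.87 and 8.53 in knockout cells without and with LIF and 6.85 and 9.10 in J1 cells without and with LIF, against 8.11, 9.06, 8.44 and 9.44 on the first arrays. The 2 second arrays without LIF were well below the other 6. The difference averaged -0.93 (SE 0.27, adjusted p = 0.299), with -1.24 and -1.59 in the groups without LIF and -0.53 and -0.34 in those with LIF. Between the groups without and with LIF it differed by -0.98 (SE 0.34, adjusted p = 0.839), which did not pass. None of the 14 had an unadjusted p under 0.05 in that test, beside 3.59% lower and 2.53% higher among all probe sets.

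Ier3, a stress-induced regulator of cell survival, had 7.34 and 8.29 on the second arrays of knockout cells without and with LIF and 7.25 and 8.05 on those of J1 cells, against 7.63, 8.4, 8.78 and 8.99 on the first arrays. Second minus first was -0.29 and -0.12 in knockout cells, against -1.53 and -0.94 in J1 cells. The average was -0.72 (SE 0.29, adjusted p = 0.361), or -0.45 when J1 cells without LIF were left out, and the difference between genotypes was 1.03 (SE 0.32, adjusted p = 0.68).

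**Figure D1:**
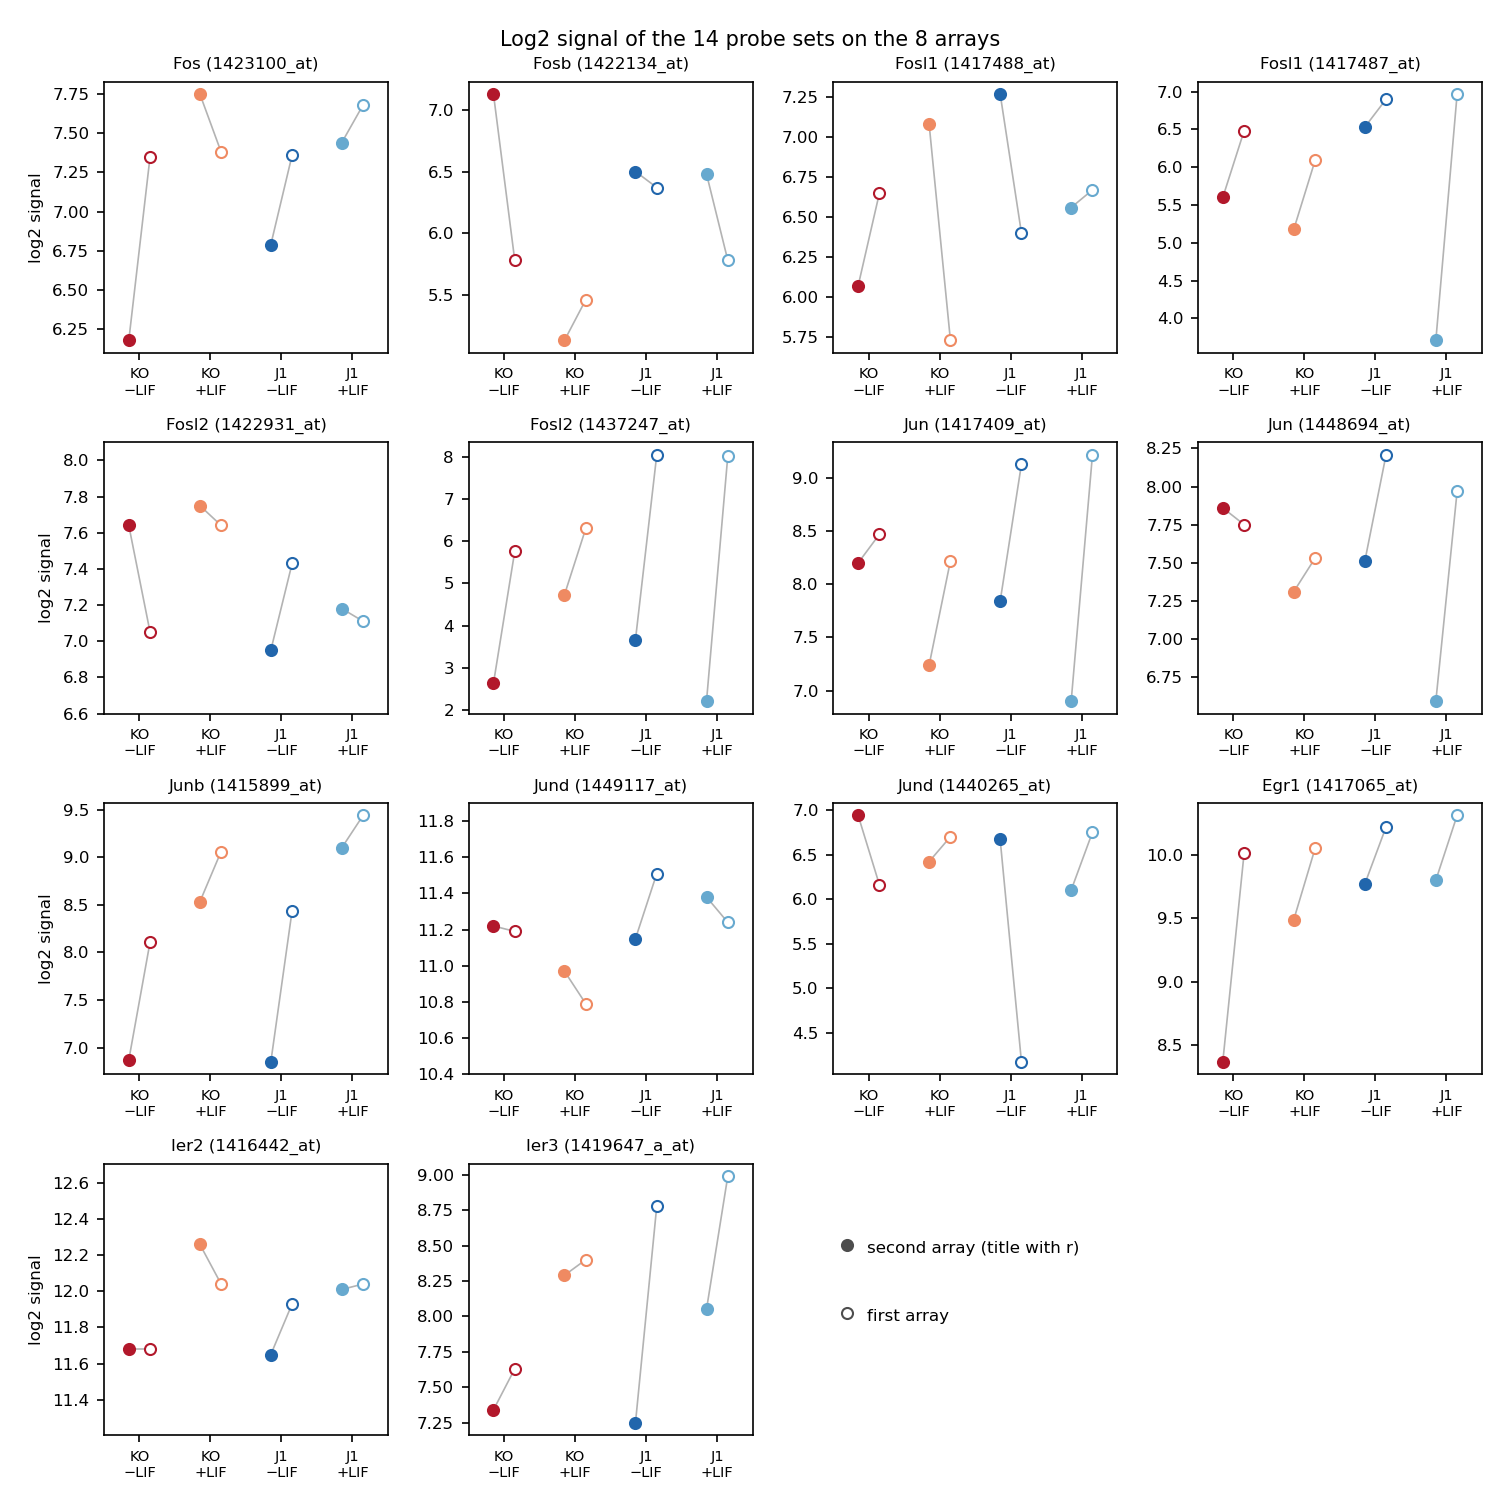
Log2 signal of each of the 14 probe sets on the 8 arrays, with an axis of its own in each panel. Filled points are second arrays, open points are first arrays, and a line joins the arrays of a group. Jun (1417409_at), Egr1 and Junb had every open point above its filled partner, and Jund (1449117_at) and Ier2 stayed between 10.79 and 12.26.

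The probe sets of the FOS genes did not share a direction. Fosl2 encodes Fra-2, a FOS relative. One of its probe sets, 1437247_at, had 2.63 and 4.73 on the second arrays of knockout cells without and with LIF and 3.67 and 2.21 on those of J1 cells, against 5.76, 6.30, 8.05 and 8.02 on the first arrays. The second array was lower in every group, with differences of -5.81 to -1.57, and 3 of the second arrays lay below a log2 of 4. The average of -3.72 (SE 0.75, adjusted p = 0.294) was the lowest of the 14. The other Fosl2 probe set, 1422931_at, stayed between 6.95 and 7.75 on all 8 arrays and differed by 0.07 (SE 0.22), so the gene as a whole has no agreed direction.

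Fosl1 encodes Fra-1, and its probe sets also opposed each other. Probe set 1417487_at differed by -1.35 (SE 0.55), with 1 group, J1 with LIF, at -3.26 and the others between -0.91 and -0.37. Probe set 1417488_at differed by 0.38 (SE 0.38), with 2 groups lower and 2 higher.

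Fos itself had 6.18 and 7.75 on the second arrays of knockout cells without and with LIF and 6.79 and 7.44 on those of J1 cells, against 7.35, 7.38, 7.36 and 7.68 on the first arrays. The first arrays were close together and the second arrays spread on both sides of them, for an average of -0.40 (SE 0.29). Fosb, whose product resembles FOS, averaged 0.46 (SE 0.32), with 3 groups higher and 1 lower. None of the FOS values passed (adjusted p = 0.294 to 0.90).

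Jund, the JUN member that many resting cells hold at a steady level, had signals of 10.97 to 11.38 on second arrays and 10.79 to 11.51 on first arrays. Ier2, an immediate early nuclear protein, had 11.65 to 12.26 on second arrays and 11.68 to 12.04 on first arrays. Both sets of arrays overlapped for both genes, with average differences of 0.00 (SE 0.16) and -0.02 (SE 0.15). The other Jund probe set, 1440265_at, ranged from 4.17 to 6.94, and its average of 0.59 (SE 0.59) rested on the first array of J1 cells without LIF at 4.17, since it was -0.046 without that group.

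**Figure D2:**
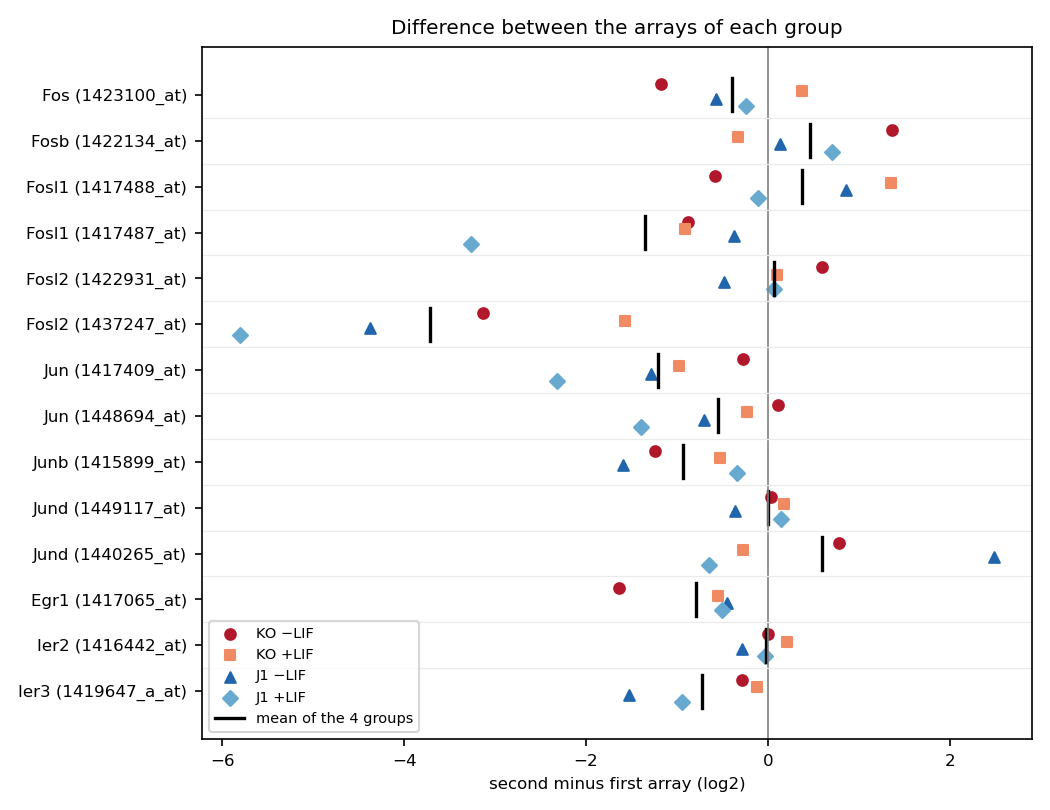
Second minus first array in log2 units for each probe set (rows) and group (symbols), with the mean of the 4 groups as a black bar. Fosl2 (1437247_at), Fosl1 (1417487_at), Jun (1417409_at), Junb, Egr1 and Ier3 had all 4 symbols left of 0.

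Of the 14 probe sets, 0 were called against 0% of all probe sets, and 4 had an unadjusted p under 0.05, all 4 lower, beside 5.62% lower and 8.87% higher among all. The second array was lower in all 4 groups for 6 of the 14, against 11.2% of all probe sets, and higher in all 4 groups for 0, against 16.7%. Among probe sets with a mean log2 of 8 to 10, where Jun, Junb, Egr1 and Ier3 lie, the share lower in all 4 groups was 20.3%. All 4 second arrays lay below all 4 first arrays for 3 of the 14, against 5.2% of all, and above them for 0, against 7.15%. The median over the 14 was -0.48, with 10 lower and 4 higher, beside 0.08 over all probe sets. Taking the probe set of highest mean for each gene, 7 of 10 were lower, with a median of -0.21 beside 0.04 over all genes.

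The calls depended on how the variance was modelled and on which probe sets were tested. With a trended and robust variance prior, limma called 1966 probe sets, 4.53% of those tested, and 4 members fell on the second arrays: Fosl2 (1437247_at, adjusted p = 0.0232), Jun (1417409_at, 0.0365), Egr1 (0.0378) and Junb (0.041). Fosl2 (1437247_at) reached a log2 of 4 on 1 second array only and passed the filter through its first arrays, where it is high, so its call and its place in the counts above give no support to a difference. With only the 14892 probe sets of mean log2 8 or above, 1837 were called, 12.3%, and Junb (adjusted p = 0.0427) and Jun (0.0473) passed out of the 6 member probe sets left.

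**Figure D3:**
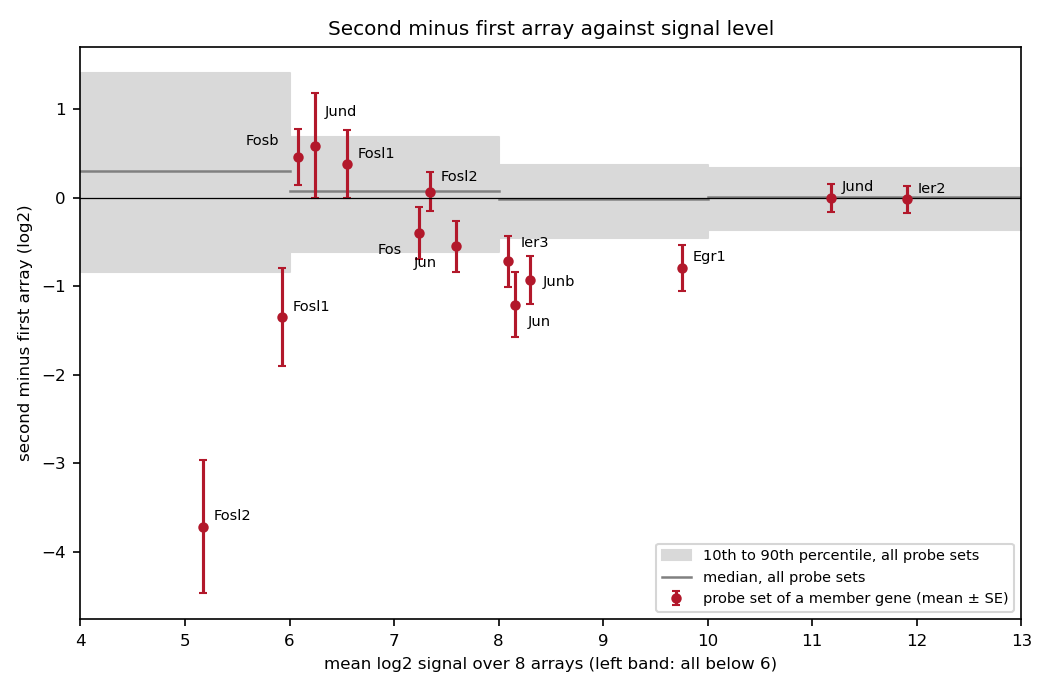
Average second minus first difference (log2, points with SE bars) of the 14 probe sets against mean log2 signal. Grey bands hold the central range of all probe sets, without the outer deciles, in 4 ranges of signal, and Jun, Junb, Ier3 and Egr1 lie below the band of 8 to 10, which ends at -0.46.

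Other measures moved with the letter r, beside the median signal and the share of probe sets above a log2 of 4 given above. The 1 mitochondrially encoded probe set had 13.99 to 14.12 log2 on second arrays and 13.04 to 13.40 on first arrays, and the 3′ over 5′ log2 ratio of the Gapdh control was -0.46 to -0.39 on second arrays and -0.35 to -0.30 on first arrays. The same ratio for Actb overlapped, at 0.26 to 0.35 on second arrays and 0.24 to 0.27 on first arrays. Of 14 measured genes driven by serum response factor and its actin-sensing partners, 12 were lower on average, with a median of -0.79. The second array was lower in all 4 groups for 9 of them, against 11.2% of all probe sets. That share was 20.3% at a mean log2 of 8 to 10 and 22.1% at 10 and above. The mean log2 of the 14 genes was 9.56 to 10.28 on second arrays and 10.22 to 11.36 on first arrays. Tagln, a smooth muscle actin-binding protein, had the widest difference of them, -4.36 (SE 0.58, limma adjusted p = 0.294). Next at a mean log2 of 8 or more came the actin Acta2 at -1.42 (SE 0.54) and the tropomyosin Tpm1 at -1.25 (SE 0.27). Acta2 had -0.46 and -0.22 in knockout cells without and with LIF, against -2.78 and -2.24 in J1 cells. Of 9 fibroblast or feeder markers, 6 were lower and 3 higher. Their summed log2 signals ran from 51.7 to 56.7 on second arrays and 54.7 to 59.6 on first arrays. The lowest was Postn at a mean of 4.29, with no detection call to set it against. Col1a2, a collagen chain, had -0.75 (SE 0.41), with 0.15 and -0.01 in knockout cells without and with LIF, against -1.66 and -1.47 in J1 cells. Of 6 endoderm markers 5 were higher and 1 lower. Their summed log2 was 35.8 to 39.0 on second arrays and 31.6 to 35.1 on first arrays. All were of low signal, with means from 4.35 for Afp to 7.32 for Gata6. Over all probe sets the median second minus first difference was 0.30 at a mean log2 under 6 and 0.08 at 6 to 8. All 5 trophoblast markers had a negative average, with summed log2 of 32.3 to 35.6 on second arrays and 34.1 to 38.5 on first arrays, and the lowest was Elf5 at 5.4. Tfap2c, a trophoblast factor, had -0.23 (SE 0.36), with opposite directions in the lines. It had -0.69 and -1.15 in knockout cells without and with LIF, against 0.48 and 0.45 in J1 cells. Of the 8 embryonic stem cell markers 8 were higher and 0 lower on average, with a median of 0.10 beside 0.04 over all genes. The second array was higher in all 4 groups for 2 of them, against 16.7% of all probe sets. The part of all these differences in the member values was not tested.

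Further immediate early genes were then examined from a list of 34, of which 32 were measured. On average 26 were lower and 6 higher on second arrays, with a median of -0.43 beside 0.04 over all genes. The second array was lower in all 4 groups for 13 of them and higher for 2, against 11.2% and 16.7% of all probe sets. At a mean log2 of 8 to 10 the share lower was 20.3%, and 0 of the list were called. Phlda1, a growth factor-induced regulator of cell death, differed by -1.67 (SE 0.40), Rhob, an early-response small GTPase, by -1.02 (SE 0.17) and Ier5l by -0.89 (SE 0.22), each at adjusted p = 0.294. Rhob ranged from -1.42 to -0.79 in the 4 groups. Phlda1 had -0.80 and -0.96 in knockout cells, against -2.28 and -2.63 in J1 cells, a contrast that was not tested here.

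Partners and upstream factors came from lists that share a few genes with the previous one. Beside the counts below, 46.2% of all genes were lower on average on second arrays, with a median of 0.04. Of 13 measured leucine zipper partners, 9 were lower and 4 higher (median -0.35, 0 called), Mafg, a small MAF protein, having -0.46 (SE 0.13), Atf4 -0.35 (SE 0.25) and Atf2 -0.30 (SE 0.16). The 14 measured upstream kinases and factors split 8 to 6 (median -0.06, 0 called), with -0.64 (SE 0.25) for Mapkapk2, a kinase downstream of p38, 0.45 (SE 0.19) for Mapk7, the kinase ERK5, and 0.41 (SE 0.17) for Elk4, a partner of serum response factor. Srf, which encodes serum response factor, had -0.23 (SE 0.16). Among 15 measured genes known as AP-1 targets, 12 were lower and 3 higher (median -0.48, 0 called). The keratins Krt8 at -2.64 (SE 0.71) and Krt18 at -2.54 (SE 0.50) and the intermediate filament gene Vim at -1.27 (SE 0.23) had the widest differences at a mean log2 of 8 or more. Krt8 had -1.21 and -1.11 in knockout cells, against -4.10 and -4.13 in J1 cells, and Krt18 had -1.49 and -1.54, against -3.61 and -3.52. In the same list Mmp13, a collagenase of low signal, differed by 2.42 (SE 0.48), in the other direction, and was higher on the second array of every group. Its first arrays had 3.17 and 1.87 in knockout cells without and with LIF and 1.47 and 4.62 in J1 cells. Mmp13 thus passed the filter on low values through its second arrays, where it is high. Neither its value nor its place in the count gives support to a difference. Of 9 heat shock genes 8 were higher and 1 lower (median 0.17, 0 called), with 0.54 (SE 0.15), 0.42 (SE 0.15) and 0.33 (SE 0.14) for the chaperones Hsp90aa1, Hspa8 and Hspd1.

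Withdrawal of LIF was compared next, to ask which members depend on the cytokine. Junb, Fos and Ier2 had lower signals on all 4 arrays without LIF than on all 4 arrays with it, and Junb had the widest difference of the 14. No probe set was called (0% of 43439), on average or in either line. Within knockout cells and within J1 cells 0 of 14 had an unadjusted p under 0.05, beside 2.32% lower and 1.76% higher, and 2.1% lower and 1.51% higher, among all probe sets.

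On its first and second arrays Junb had 8.11 and 6.87 in knockout cells without LIF, against 9.06 and 8.53 with LIF, and 8.44 and 6.85 in J1 cells without LIF, against 9.44 and 9.10 with LIF. The groups did not overlap, although the highest array without LIF (8.44) lay only just below the lowest array with LIF (8.53). The average difference was -1.47 (SE 0.47, n = 4 arrays each, limma adjusted p = 0.9999, unadjusted 0.0213), a 2.77-fold lower signal without LIF.

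Within first arrays the difference for Junb was -0.96 in knockout cells and -1.0 in J1 cells. Within second arrays it was -1.67 in knockout cells and -2.26 in J1 cells. All 4 of these differences were negative, which follows from the groups not overlapping and adds nothing to it. The fitted differences of the lines, -1.31 (SE 0.66) in knockout cells and -1.63 (SE 0.66) in J1 cells, were 0.32 (SE 0.93) apart, which did not pass.

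In the same order of arrays, Ier2 had 11.68 on both knockout arrays without LIF, against 12.04 and 12.26 with LIF. In J1 cells it had 11.93 and 11.65 without LIF, against 12.04 and 12.01 with LIF. These were narrow differences at a high signal, averaging -0.35 (SE 0.16, adjusted p = 0.9999). Fos had 7.35 and 6.18 in knockout cells without LIF, against 7.38 and 7.75 with LIF, and 7.36 and 6.79 in J1 cells without LIF, against 7.68 and 7.44 with LIF. The groups were separated by the gap between 7.36 and 7.38 only, and the average was -0.64 (SE 0.32, adjusted p = 0.9999). It was -0.35 without the second array of knockout cells without LIF, which is the lowest of the 8.

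Such separation held for 3 of the 14 probe sets, lower without LIF, against 1.33% of all probe sets, and for 0 in the other direction, against 1.02%. The same 3 genes were separated after quantile normalization. Over the 14 the median was -0.22, beside -0.01 over all probe sets, with 8 lower and 6 higher. At an unadjusted p under 0.05 only Junb appeared, beside 2.47% of all probe sets lower and 1.56% higher.

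Ier3 had 7.63 and 7.34 in knockout cells without LIF, against 8.4 and 8.29 with LIF, which did not overlap. In J1 cells it had 8.78 and 7.25 without LIF, against 8.99 and 8.05 with LIF, which did. The average was -0.68 (SE 0.41), or -1.06 and -0.30 without the first and without the second array of J1 cells without LIF. Egr1 averaged -0.32 (SE 0.42), with -0.58 (SE 0.59) in knockout cells and -0.06 (SE 0.59) in J1 cells, and the array of lowest signal, 8.37, was the second one of knockout cells without LIF.

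Jun had a value in the other direction. It had 8.47 and 8.20 in knockout cells without LIF, against 8.22 and 7.24 with LIF, and 9.13 and 7.84 in J1 cells without LIF, against 9.22 and 6.90 with LIF. The arrays overlapped in both lines, and the averages of its probe sets were 0.52 (SE 0.61) and 0.48 (SE 0.36). Within first arrays the difference for 1417409_at was 0.25 in knockout cells and -0.08 in J1 cells, and within second arrays 0.96 and 0.94.

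Fosb averaged 0.73 (SE 0.36), or 0.39 without the second array of knockout cells without LIF, with 5.78 and 7.13 in knockout cells without LIF, against 5.46 and 5.13 with LIF, and 6.37 and 6.50 in J1 cells without LIF, against 5.78 and 6.48 with LIF. Jund differed by 0.17 (SE 0.17), its other probe set by -0.51 (SE 0.59), and the probe sets of Fosl1 and Fosl2 by -0.29 to 0.89, with SE of 0.22 to 1.70.

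**Figure D4:**
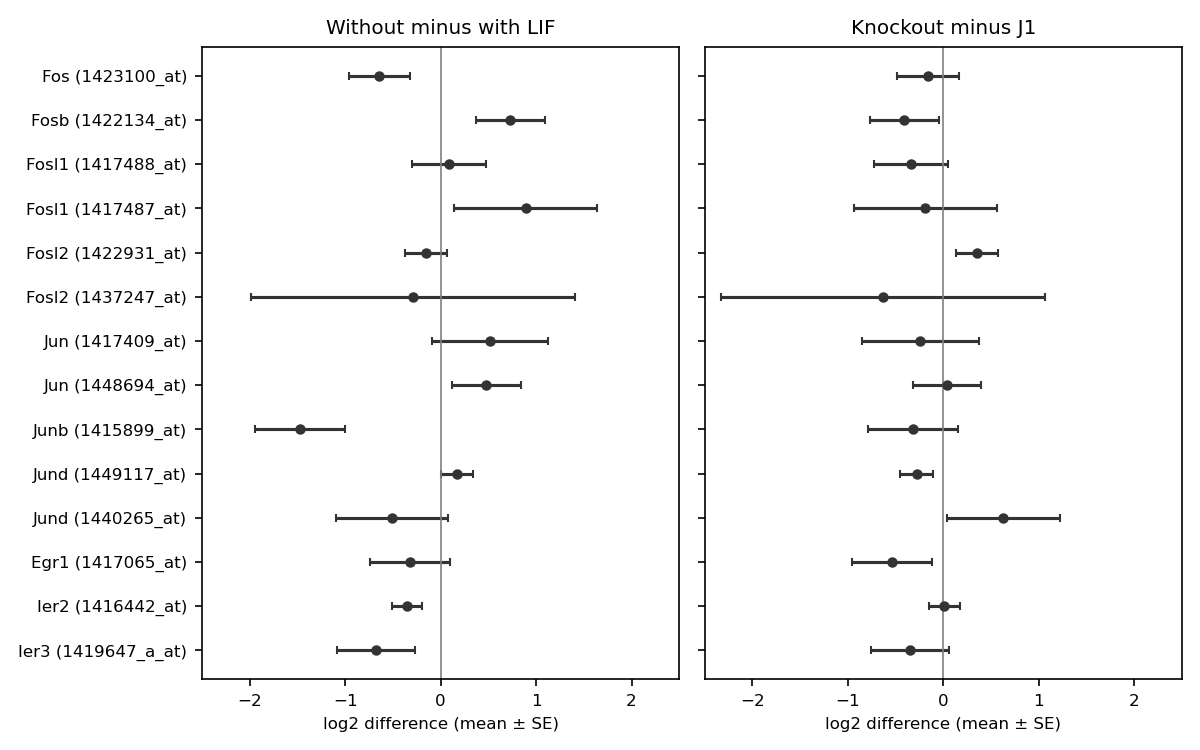
Average log2 difference (points, with SE bars) of the 14 probe sets without minus with LIF (left) and knockout minus J1 (right), each over 4 arrays against 4. Junb at -1.47 lies farthest from 0 in the left panel, and no point in either panel was called.

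Known LIF and STAT3 targets were set beside Junb. Of 12 measured, 10 were lower and 2 higher without LIF, with a median of -0.44. All 4 arrays without LIF lay below all 4 with it for 6 of them, against 1.33% of all probe sets. Socs3, the feedback inhibitor of the pathway, had 9.84 and 9.6 on the second and first arrays of knockout cells without LIF, against 12.68 and 12.78 with LIF, and 8.51 and 10.60 in J1 cells without LIF, against 12.43 and 12.61 with LIF. Its average of -2.99 (SE 0.47) and those of Bcl3 at -1.78 (SE 0.32) and Stat3 at -1.13 (SE 0.26) did not pass over all probe sets either. The other immediate early genes split 18 lower and 14 higher without LIF, with a median of -0.03. In the lower direction 2 were separated, against 1.33% of all probe sets. The partners (4 lower, 9 higher) and the upstream factors (6 lower, 8 higher) had medians of 0.12 and 0.06, and 0 were called in any of these lists.

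Genotypes were compared to ask whether targeting Rex-1 alters these genes. No member separated the knockout arrays from the J1 arrays, in either direction, against 1.74% of all probe sets lower and 2.1% higher. In limma 0 of 14 were called in cells with LIF, in cells without it or over both, against 0% of all probe sets in each. None had an unadjusted p under 0.05 either. Among all probe sets, that p was reached by 2.27% lower and 2.76% higher with LIF, 1.59% lower and 2.09% higher without LIF, and 2.21% lower and 3.06% higher over both.

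On average 10 of the 14 probe sets had a negative value and 4 a positive one, with a median of -0.26 beside 0.02 over all probe sets. Egr1 differed by -0.54 (SE 0.42), with -0.80 (SE 0.59) without LIF and -0.29 (SE 0.59) with LIF. Within first arrays it differed by -0.21 without LIF and -0.26 with it, and within second arrays by -1.40 and -0.31, so 1 array carried most of the average. Jund differed by -0.28 (SE 0.17) and Fosl2 (1422931_at) by 0.35 (SE 0.22).

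For Jun (1417409_at) the genotype difference turned with the array. Knockout minus J1 was -0.66 without LIF and -1.0 with LIF in first arrays, and 0.36 and 0.34 in second arrays, which left an average of -0.24 (SE 0.61). Ier3 followed the same course, at -1.15 and -0.59 in first arrays and 0.09 and 0.24 in second arrays, and averaged -0.35 (SE 0.41). Junb averaged -0.32 (SE 0.47), Fos -0.16 (SE 0.32) and Ier2 0.01 (SE 0.16). The genes driven by serum response factor had a negative value in 14 of 14, against 48.1% of all genes. Their median was -0.55, beside 0.01 over all genes, and 0 were called. On first arrays their mean log2 was 10.37 and 10.22 in knockout cells without and with LIF, against 11.34 and 11.36 in J1 cells. On second arrays it was 9.56 and 9.63, against 9.77 and 10.28, so the gap was wider on first arrays. In the test of whether the LIF difference differed between the lines, 0 of 14 were called (0% of all), with values of -2.07 to 1.0. None had an unadjusted p under 0.05, beside 1.76% lower and 1.79% higher among all probe sets.

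Likeness of pattern was measured as Pearson's r of the log2 signal over the 8 arrays, which share their groups and array order, among genes whose mean log2 was 8 or more. The genes most like Egr1 were Eif2s3x (r = 0.988), Pif1 (0.976), Pcyt1a (0.976), Akap7 (0.958) and Nepro (0.957) out of 8364. Egr1 had 8.37 on the second array of knockout cells without LIF, against 9.49 to 10.31 on the others. That array therefore weighs heavily in these values. The genes most like Fos were Cpped1 (0.962), Dnajc22 (0.935), Tmem238 (0.935), Agap3 (0.919) and Tpst2 (0.915) out of 8365. Among the members, the value with Fos was 0.859 for Junb, 0.77 for Ier2, 0.766 for Egr1 and 0.745 for Ier3, 0.00 for Jun and -0.812 for Fosb. With so many genes and 8 arrays these are descriptions of the arrays only.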

How the data were processed

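The authors deposited 1 linear intensity for each probe set of 8 one-colour arrays. Per the submitters' processing notes GCRMA was used, with no version or role. The deposited columns are not logged, share a mean of 500 once the lowest and highest 2% of probe sets are left out, and have unequal distributions, so the step that made them is not known. No detection value was used, and the number of arrays limits the precision. Of 45101 probe sets, 64 controls were left out. Genes were named from the platform annotation where a probe set had 1 symbol.

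Intensities were taken to log2 with no pseudocount. Probe sets with log2 of at least 4 on at least 2 arrays were kept, 43439. limma 3.58.1 in R 4.3.3 was fitted to all of them, with 1 mean per group for the genotype and LIF contrasts, and with group means plus the letter r for second minus first arrays. The letter by genotype and by LIF was tested in 1 further fit, which has 1 residual degree of freedom. Where a gene had several probe sets, the one with the highest mean stands for it in counts of genes. Members and lists were chosen with earlier results of these data known. Up to 3 genes of a list are named, by the width of their difference at a mean log2 of at least 8, for second minus first arrays and, from the list of LIF targets, for LIF, and others by this rule are not named. Srf, Zfp42, Pou5f1, Nanog, Mmp13 and the lowest marker of a list were added after their values were seen. The fit was run on simulated data of independent noise with added changes, which lack the whole-array differences between first and second arrays described above. Figures used matplotlib 3.10.9 in Python 3.11.15.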

Additional observations from a re-analysis of the deposited data

How the results depend on the processing

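Alternatives covered the filter, normalization, a pseudocount of 16, the variance prior, the replicate block, subsets of groups, the probe set per gene and each array left out. No member was called under any of them for genotype, LIF or their interaction. For second minus first arrays the count of called probe sets was 0 as planned, 1837 at a mean log2 of at least 8 and 1966 with a trended and robust prior, with 2 and 4 member probe sets among them, and 0 without any 1 array. The trended prior called 1 probe set for genotype. The letter r was not taken as a pairing because second minus first differences of 2 groups correlated weakly, at 0.0496 to 0.198 over probe sets. Of 6 values 2 were under 0.1, but all were positive, and several whole-array measures moved with the letter. The genotype and LIF fits therefore count differences between first and second arrays as spread. With the letter as a replicate block 0 probe sets were called in every contrast, and the SE was smaller for several members. For LIF it was 0.27 for Junb and 0.75 for Fosl2 (1437247_at), against 0.47 and 1.70 without the block.

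Several member values changed sign. Quantile normalization gave -0.038 for Fosl2 (1422931_at) and 0.020 for Jund (1449117_at) in second minus first arrays and -0.0046 for Ier2 in genotype. In knockout groups alone second minus first was 0.11 for Jund and 0.11 for Ier2, and in J1 groups alone -0.21 for Fosl2 (1422931_at). In groups with LIF alone it was 0.067 for Fos, 0.16 for Jund, -0.46 for Jund (1440265_at) and 0.092 for Ier2. Averaging a gene's probe sets gave -0.49 for Fosl1, -1.83 for Fosl2 and 0.29 for Jund in second minus first, -0.14 for Fosl2 and 0.18 for Jund in genotype, and -0.17 for Jund in LIF.

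With 1 array left out at a time, some values changed sign. In second minus first arrays these ranged over -0.064 to 0.12 for Jund (1449117_at), -0.046 to 1.00 for Jund (1440265_at), -0.10 to 0.060 for Ier2 and -0.10 to 0.25 for Fosl2 (1422931_at). For genotype these ranged over -2.08 to 0.82 for Fosl2 (1437247_at), -0.82 to 0.34 for Jun (1417409_at), -0.72 to 0.082 for Junb, -0.74 to 0.029 for Ier3, -0.30 to 0.39 for Jun (1448694_at), -0.062 to 0.077 for Ier2, -1.01 to 0.62 for Fosl1 (1417487_at) and -0.45 to 0.14 for Fos. For LIF these ranged over -1.13 to 0.11 for Jund (1440265_at), -0.25 to 0.43 for Fosl1 (1417488_at), -1.74 to 1.17 for Fosl2 (1437247_at), -0.061 to 1.10 for Jun (1417409_at) and -0.73 to 0.089 for Egr1. Without a change of sign, leaving out 1 array moved other values by over 1.5 times. For LIF these ranged over -0.94 to -0.35 for Fos, -1.06 to -0.30 for Ier3, 0.39 to 1.07 for Fosb, 0.13 to 0.83 for Jun (1448694_at) and 0.072 to 1.70 for Fosl1 (1417487_at), for genotype over -0.95 to -0.13 for Egr1 and -0.75 to -0.070 for Fosb, and for second minus first over -0.66 to -0.15 for Fos, 0.17 to 0.73 for Fosb and -1.68 to -0.72 for Fosl1 (1417487_at), among others. The cause of these moves was not tested. No detection call was used, so signals below a log2 of 4, as on 3 second arrays for Fosl2 (1437247_at), have no stated background to be set against.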
